A study of Mus musculus with 9 samples.

Results

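Glycolysis is represented here by 10 genes chosen by name, which are Hif1a, Slc2a1, Hk1, Hk2, Pfkp, Aldoa, Gapdh, Pgk1, Pkm and Ldha. They were matched by gene name to a table of 55385 gene rows, in which 11 rows carry these names. The extra row is a second locus named Aldoa (ENSMUSG00000114515), which lies next to the main Aldoa locus (ENSMUSG00000030695), held 0.250 ± 0.205 (SD, n = 3) normalized counts per 1000000 in Control, 0.451 ± 0.0976 in HN and 0.352 ± 0.0842 in PEC, and is not described further. All 10 genes passed the filter on low counts that left 21392 genes for testing.

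The samples are 9 mouse kidneys, each sequenced as a poly(A)-selected RNA library, with 3 libraries in each of 3 groups. The Control group (replicates 2, 4 and 5) is labelled untreated, HN (replicates 4, 8 and 12) is hyperuricemic nephropathy, a kidney disease of high uric acid, and PEC (replicates 1, 2 and 3) is the group given pectolinarigenin, a plant flavonoid. All mice are C57BL/6 by their labels, and C57BL/6J males of 8 to 10 weeks by the study's methods. By those methods the disease was produced over 4 weeks with potassium oxonate at 2.4 g/kg and adenine at 0.16 g/kg by mouth, which together raise uric acid and injure the tubules, so that the model carries adenine injury as well as high uric acid. PEC mice received the same agents together with pectolinarigenin throughout, at 25 mg/kg for the sequenced group. The labels hold no dose. The titles of the Control libraries call them HN mice, and their group was taken from the disease state label, which reads control.

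The deposited table gives a read count and an FPKM (fragments counted, divided by gene length and library total) for each gene and library. Total counts were 75320528, 74965874 and 78459183 in the Control libraries, 74315544, 81069646 and 74212324 in HN kidneys, and 74397038, 65583215 and 57714111 in PEC. Values below are counts per 1000000 after TMM normalization (CPM), which scales libraries so that most genes show no shift between libraries, unless FPKM is named. The kidney label fits the markers: the summed level of 9 proximal tubule genes was between 13970.0 and 15201 CPM in the Control libraries.

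Glycolysis turns glucose into pyruvate in the cytosol, and lactate dehydrogenase turns pyruvate into lactate. Hypoxia-inducible factor 1 alpha (HIF-1α) is a transcription factor that is mostly controlled through the stability of its protein and that drives many genes of this pathway. In the kidney the proximal tubule makes glucose and burns mainly fatty acids, whereas more distal segments, immune cells and injured tubule cells depend more on glycolysis. Gapdh is the enzyme of the middle of the pathway and a common reference gene, and the mouse genome holds many processed pseudogenes of it, which are copies of its messenger RNA inserted elsewhere.

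The PEC libraries stand apart from the other libraries in ways that bear on everything that follows. In a principal component analysis of log2 CPM the first component (37.38% of the variance) separated Control from the other groups, and the second (25.33%) placed the PEC libraries between 91.2 and 105 and the HN libraries between -106 and -91.9, with Control between -2.29 and 8.63. Across genes, the difference between the PEC libraries and the other libraries had a Spearman rho of -0.27 with gene length (20742 genes) and 0.21 with transcript GC content (21358 genes), where HN minus Control had 0.07 and 0.04. Genes are not independent replicates, so these are descriptions. All 3 PEC libraries share this, so it cannot be told apart from the treatment. Mitochondrially encoded genes took 13.3%, 12.9% and 16.3% of the counts in Control, 6.01%, 6.22% and 6.34% in HN kidneys and 12.99%, 10.3% and 13.6% in PEC, and the TMM factors ran from 0.778 to 0.832 in Control, 1.15 to 1.22 in HN and 1.02 to 1.05 in PEC.

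Scaling therefore matters for modest changes. With library totals as the only scaling, the median log2 fold change of all genes was 0.56 for HN against Control, -0.21 for PEC against HN and 0.40 for PEC against Control. Under TMM these medians were -0.0008, -0.015 and 0.04. Below, the text says where a call on a member turns under library totals, and gives the counts of each gene list under them. The PEC comparisons were also refitted with corrections for gene length and GC content, each in a planned form that also rescales the libraries and in a centred form, chosen after seeing the data, that does not.

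Levels were compared between the members per unit of gene length, as FPKM, and their order rests on the row lengths the table used. In Control the order was Pgk1 (222 ± 2.32, SD, n = 3), Aldoa (171 ± 11.3), Ldha (154 ± 7.09), Pkm (38.0 ± 2.46), Hif1a (16.6 ± 2.92), Slc2a1 (13.4 ± 3.40), Hk1 (11.1 ± 0.859), Gapdh (4.47 ± 1.07), Pfkp (4.30 ± 0.448) and Hk2 (0.233 ± 0.118). Adjacent members whose libraries overlapped were Hif1a with Slc2a1, Slc2a1 with Hk1, and Gapdh with Pfkp. HN had Aldoa at the top (193 ± 7.16 FPKM), then Pgk1 (168 ± 2.18), Ldha (134 ± 3.36) and Pkm (75.6 ± 2.83). At the bottom was Gapdh (3.85 ± 0.191), whose libraries overlapped those of Hk2 (4.37 ± 0.516). In PEC, Aldoa was again the top member (266 ± 20.5 FPKM), Pgk1 (156 ± 13.5) and Ldha (150.4 ± 11.3) overlapped, and Gapdh (52.6 ± 4.53) came next after Pkm (74.4 ± 4.59) and above Slc2a1 (24.4 ± 1.78). A Gapdh row below the other enzymes of its stretch of the pathway is taken up further on, with the reads on its pseudogene rows.

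Hif1a (ENSMUSG00000021109, chr12:73901375-73947530) encodes HIF-1α. Its level was 143, 143 and 109 CPM in Control, 147, 128 and 134 in HN kidneys, and 54.3, 68.1 and 70.8 in PEC. Every PEC library was below every library of the other groups, which overlapped each other. Slc2a1 (ENSMUSG00000028645, chr4:119108711-119137983) encodes the glucose transporter GLUT1. It stood at 67.5, 74.9 and 47.1 CPM in Control, 89.4, 74.0 and 69.5 in HN kidneys, and 95.2, 85.4 and 98.6 in PEC. The PEC libraries were all above Control, and HN overlapped both.

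Hexokinases trap glucose in the cell by phosphorylating it, and Hk1 (ENSMUSG00000037012, chr10:62268855-62379908) and Hk2 (ENSMUSG00000000628, chr6:82725025-82774454) encode isoforms bound to mitochondria. Hk1 was at 121, 136 and 127 CPM in Control, 145, 124 and 148 in HN kidneys, and 178, 180.4 and 181 in PEC. The PEC libraries lay close together above the rest. Hk2 was almost silent in Control, at 3.001, 1.35 and 1.38 CPM, and reached 27.6, 20.9 and 24.7 in HN kidneys and 12, 12.9 and 23.0 in PEC. Every HN and PEC library was above Control, and PEC replicate 3 fell within the HN range.

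Pfkp (ENSMUSG00000021196, chr13:6579768-6648777) encodes the platelet-type phosphofructokinase, which catalyses the committed step. Its level was 78.3, 83.5 and 71.9 CPM in Control, 124, 109.5 and 109.8 in HN kidneys, and 85.2, 76.9 and 88.9 in PEC. All HN libraries were above all others, and PEC overlapped Control. Pitrm1, on the opposite strand, overlaps Pfkp by 748 bases and averaged 4279 counts in Control, 4882 in HN and 3336 in PEC beside 4807, 10417 and 5713 for Pfkp. The counting is not stated to use strand, so reads in the shared stretch cannot be told apart. Aldoa (ENSMUSG00000030695, chr7:126795234-126800751) encodes aldolase A, which splits the 6-carbon sugar. It stood at 676, 695 and 646 CPM in Control, 561, 499 and 514 in HN kidneys, and 891, 767 and 868 in PEC, and no group overlapped another.

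Gapdh (ENSMUSG00000057666, chr6:125161715-125165773) encodes glyceraldehyde-3-phosphate dehydrogenase. Its own row held 23.8, 19.1 and 32.4 CPM in Control, 14.5, 15.2 and 14.8 in HN kidneys, and 221, 228 and 259 in PEC. The HN libraries were below Control and the PEC libraries were far above both. Iffo1, on the opposite strand, overlaps Gapdh by only 68 bases. Pgk1 (ENSMUSG00000062070, chrX:106187100-106203699) encodes phosphoglycerate kinase, the next enzyme. It was at 669, 662 and 688 CPM in Control, 369, 346 and 342 in HN kidneys, and 367, 417 and 357 in PEC. Control stood above both other groups, which overlapped.

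Pkm (ENSMUSG00000032294, chr9:59656368-59679375) encodes the muscle-type pyruvate kinase, whose PKM1 and PKM2 forms are counted together here. Its level was 242, 269 and 259.8 CPM in Control, 374, 334 and 352 in HN kidneys, and 386, 393 and 432 in PEC. Control was lowest without overlap, and the PEC libraries were above the HN libraries. Gm49759, a row on the same strand within Pkm, averaged 569 counts in Control, 986 in HN and 1346 in PEC beside 15849, 32130 and 27479 for Pkm, and reads in their shared 3887 bases cannot be told apart. Ldha (ENSMUSG00000063229, chr7:46841475-46855627) encodes the lactate dehydrogenase subunit that favours lactate formation. It was at 702, 686 and 673 CPM in Control, 440.4, 404 and 400.2 in HN kidneys, and 516, 586 and 519 in PEC, with PEC between the other groups and no overlap.

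**Figure D1:**
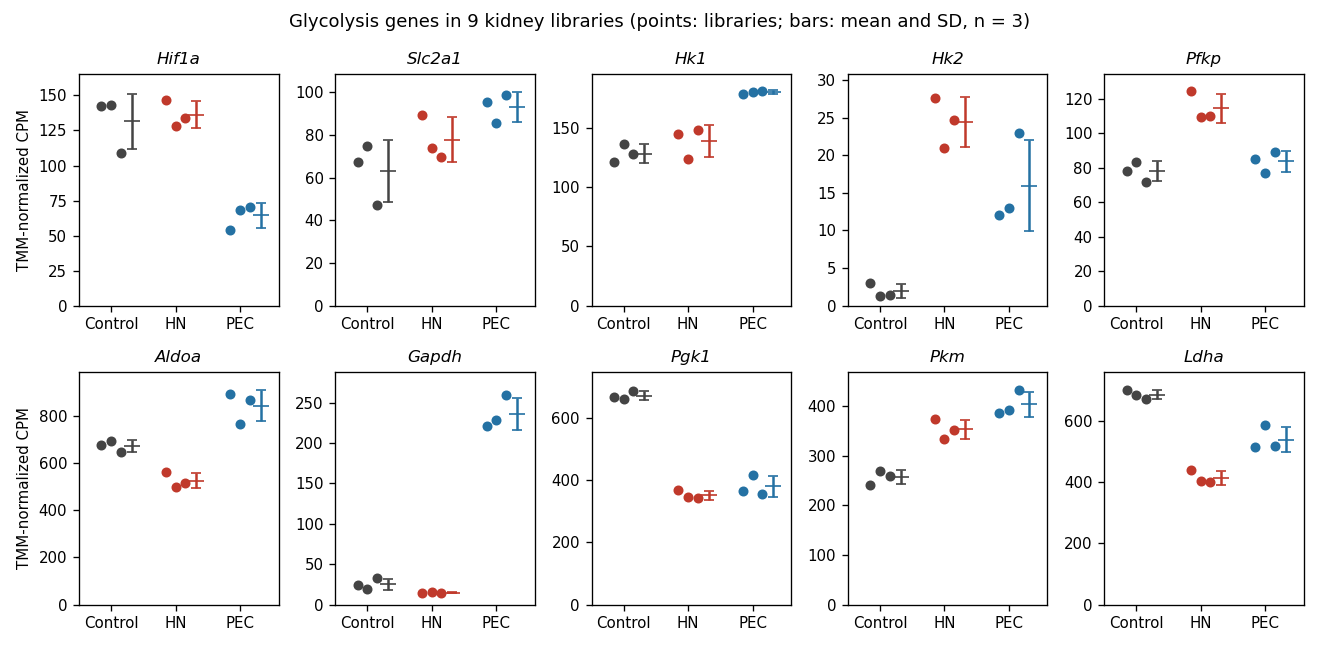
TMM-normalized CPM of each of the 10 genes, with 1 point per library, a horizontal bar at the group mean and whiskers of 1 SD (n = 3). Hif1a is lowest in the 3 PEC libraries, Hk2 is near 0 in Control, Pgk1 is highest in Control, and the Gapdh row is highest in PEC.

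The comparison of HN with Control asks what the disease model did. Hk2 had the largest fold difference, with 24.4 ± 3.35 CPM in HN and 1.91 ± 0.947 in Control (SD, n = 3). Pfkp and Pkm were higher by smaller folds, and Pgk1, Ldha, Aldoa and the Gapdh row were lower under TMM. Hif1a, Slc2a1 and Hk1 did not pass the test.

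By edgeR's quasi-likelihood test with Benjamini-Hochberg adjustment over all genes, 7 of the 10 members passed an adjusted p of 0.05 between HN and Control, where 41.8% of all 21392 genes did. Of these, 3 were higher, against 21.1% of all genes, and 4 were lower, against 20.7%. The study's own rule is a fold change of at least 1.5 with p of at most 0.05. Its p was taken here as unadjusted. By this rule 4 members passed against 36.2% of all genes, 1 of them higher (Hk2) against 19.7% and 3 lower (Gapdh, Pgk1 and Ldha) against 16.5%. The median log2 fold change of the members was 0.08, beside -0.0008 for all genes. With library totals as the only scaling, 9642 genes were higher and 1706 lower, where the TMM fit gave 4520 and 4425, and the members' split was 6 higher and 1 lower. A fit of the HN and Control libraries alone, without PEC, again gave 3 members higher and 4 lower.

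Hk2 rose by a log2 fold change of 3.68 (SE 0.38, adjusted p = 7.05e-05), with no overlap between the groups. Pfkp rose by 0.56 (SE 0.09, adjusted p = 0.00129), which was 0.28 with an adjusted p of 0.0539 under the planned length correction and still called under its centred form. Pkm rose by 0.46 (SE 0.08, adjusted p = 0.00185), and the planned corrections for length and GC ended that call (0.13, adjusted p = 0.234, and 0.14, adjusted p = 0.24) while both centred forms kept it. The planned forms put the median of all genes at -0.27 in this comparison. Hif1a had a log2 fold change of 0.05 (SE 0.14, adjusted p = 0.811), Slc2a1 0.30 (SE 0.17, adjusted p = 0.195) and Hk1 0.11 (SE 0.09, adjusted p = 0.343). Under library totals these 3 were called higher, at 0.60, 0.84 and 0.67, and under the planned length correction all 3 were below 0, at -0.27, -0.018 and -0.17, whereas both centred forms left them above 0 and uncalled. Without Control replicate 5 the value of Hif1a was -0.069, and without HN replicate 4 it was -0.004. Leaving out 1 library moved Slc2a1 between 0.13 and 0.44 and Hk1 between 0.068 and 0.20.

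Pgk1 fell by 0.93 on the log2 scale (SE 0.08, adjusted p = 2.96e-05) and was also lower under library totals. Ldha fell by 0.73 (SE 0.08, adjusted p = 0.000118), a call that library totals ended (-0.17, adjusted p = 0.0918). The Gapdh row fell by 0.76 (SE 0.17, adjusted p = 0.00601), and library totals ended this call too (-0.19, adjusted p = 0.337). Aldoa fell by 0.36 (SE 0.09, adjusted p = 0.0101) under TMM and turned to 0.20 (adjusted p = 0.103) under library totals.

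The comparison of PEC with HN asks what pectolinarigenin did in the diseased kidney. Hif1a was at 64.4 ± 8.83 CPM in PEC and 136 ± 9.58 in HN (SD, n = 3). The Gapdh row, at 236 ± 20.3 CPM in PEC and 14.8 ± 0.384 in HN, had the largest fold difference among the members. Aldoa, Ldha and Hk1 were higher in PEC by smaller folds, and Pfkp was lower. Slc2a1, Hk2, Pgk1 and Pkm did not pass the test with TMM scaling.

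Between PEC and HN, 6 members passed, where 38.9% of all genes did. Of these, 4 were higher, against 18.3% of all genes, and 2 were lower, against 20.6%. By the study's rule 3 passed against 33.2%, 2 of them higher (Aldoa and Gapdh) against 15.7% and 1 lower (Hif1a) against 17.6%. The members' median log2 fold change was 0.23, beside -0.015 for all genes. Library totals gave 2588 genes higher and 6031 lower, where the TMM fit gave 3923 and 4399, and 2 members higher and 2 lower.

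Hif1a fell by 1.08 on the log2 scale (SE 0.14, adjusted p = 0.0004). Its transcript GC content, 41.0%, is at percentile 7.15 of the genes tested, and the PEC libraries differ from the others with GC content. Its call held under the planned and the centred GC corrections. The Gapdh row rose by 3.99 (SE 0.19, adjusted p = 9.39e-06) and Aldoa by 0.68 (SE 0.09, adjusted p = 0.000431). Ldha rose by 0.38 (SE 0.08, adjusted p = 0.00602) and Hk1 by 0.38 (SE 0.09, adjusted p = 0.00893), and library totals ended both calls, at 0.18 (adjusted p = 0.0915) and 0.18 (adjusted p = 0.167). The planned GC correction ended them as well, at 0.23 for Ldha (adjusted p = 0.0844) and 0.19 for Hk1 (adjusted p = 0.142), and the centred form kept the call of Ldha and ended that of Hk1 (0.24, adjusted p = 0.0691). Both length corrections kept both calls.

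Pfkp fell by 0.45 (SE 0.09, adjusted p = 0.005), but under the planned length correction its value was 0.10 (adjusted p = 0.51) and under the centred form 0.046 (adjusted p = 0.765). The length of its row, as recovered from counts and FPKM, is at percentile 97.1 of the genes tested. It came out at 14869 bases, on a scale that may be too long. Hk2 had -0.61 (SE 0.34, adjusted p = 0.187), Slc2a1 0.26 (SE 0.17, adjusted p = 0.256), Pgk1 0.11 (SE 0.08, adjusted p = 0.33) and Pkm 0.19 (SE 0.08, adjusted p = 0.0956). Leaving out 1 library moved Hk2 between -0.94 and -0.45, Slc2a1 between 0.18 and 0.37, and Pgk1 between 0.032 and 0.18. Under library totals Pgk1 turned to -0.090 and Pkm to -0.005. Hk2 did not pass in this fit, but limma called it lower on log2(FPKM + 1), at -0.66 (adjusted p = 0.0122), and with 0.1 in place of 1, at -0.86 (adjusted p = 0.0388). Its PEC libraries spread from 12 to 23.0 CPM. Pkm was called higher under the planned length correction, at 0.38 (adjusted p = 0.00665), and under the centred form, at 0.33 (adjusted p = 0.0115).

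The comparison of PEC with Control asks how far treated diseased kidneys were from untreated ones, and it shares its libraries with the comparisons above. Hk2 remained far above Control, at 16.0 ± 6.08 CPM in PEC and 1.91 ± 0.947 in Control (SD, n = 3). Pgk1 remained below, at 380.2 ± 32.5 CPM beside 673 ± 13.3. Pkm, Hk1, Slc2a1, Aldoa and the Gapdh row were above Control, Hif1a and Ldha were below, and Pfkp did not pass the test.

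Between PEC and Control, 9 members passed, where 46.5% of all genes did. Of these, 6 were higher, against 22.9% of all genes, and 3 were lower, against 23.5%. By the study's rule 5 passed against 40.6%, 3 of them higher (Hk2, Gapdh and Pkm) against 21.6% and 2 lower (Hif1a and Pgk1) against 19.1%. The members' median log2 fold change was 0.41, beside 0.04 for all genes. Library totals gave 7792 genes higher and 2841 lower, where the TMM fit gave 4902 and 5037, and 7 members higher and 2 lower.

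Hk2 was higher in PEC by a log2 fold change of 3.06 (SE 0.37, adjusted p = 0.000187) and the Gapdh row by 3.23 (SE 0.18, adjusted p = 5.67e-06). Pkm was higher by 0.65 (SE 0.08, adjusted p = 0.000243) and Hk1 by 0.49 (SE 0.09, adjusted p = 0.00175), and the planned GC correction ended both calls, at 0.14 (adjusted p = 0.243) and 0.004 (adjusted p = 0.977), with the median of all genes at -0.21, while the centred form kept both. Slc2a1 was higher by 0.56 (SE 0.17, adjusted p = 0.0235), a call lost without PEC replicate 1 (0.54, adjusted p = 0.0604) and without PEC replicate 3 (0.54, adjusted p = 0.0553). Aldoa was higher by 0.33 (SE 0.09, adjusted p = 0.0144), which was lost without PEC replicate 1 (0.28, adjusted p = 0.0577) and turned to -0.17 (adjusted p = 0.17) under the planned GC correction. Both calls were also lost under the planned length correction, at 0.30 for Slc2a1 and 0.04 for Aldoa, that of Slc2a1 under the planned GC correction, at 0.055 (adjusted p = 0.81), and both under the centred GC correction, at 0.36 and 0.13, and were kept under the centred length correction.

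Pgk1 fell by 0.82 between Control and PEC on the log2 scale (SE 0.08, adjusted p = 6.99e-05) and Hif1a by 1.03 (SE 0.14, adjusted p = 0.000329). Ldha fell by 0.35 (SE 0.08, adjusted p = 0.00746) under TMM and was at 0.010 (adjusted p = 0.922) under library totals. Pfkp had 0.10 (SE 0.09, adjusted p = 0.403), and leaving out 1 library moved it between 0.044 and 0.16. It was called higher at 0.46 under library totals (adjusted p = 0.00523), at 0.38 under the planned length correction (adjusted p = 0.0161) and at 0.64 under its centred form (adjusted p = 0.00116). Under the planned GC correction it was at -0.20 (adjusted p = 0.163).

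**Figure D2:**
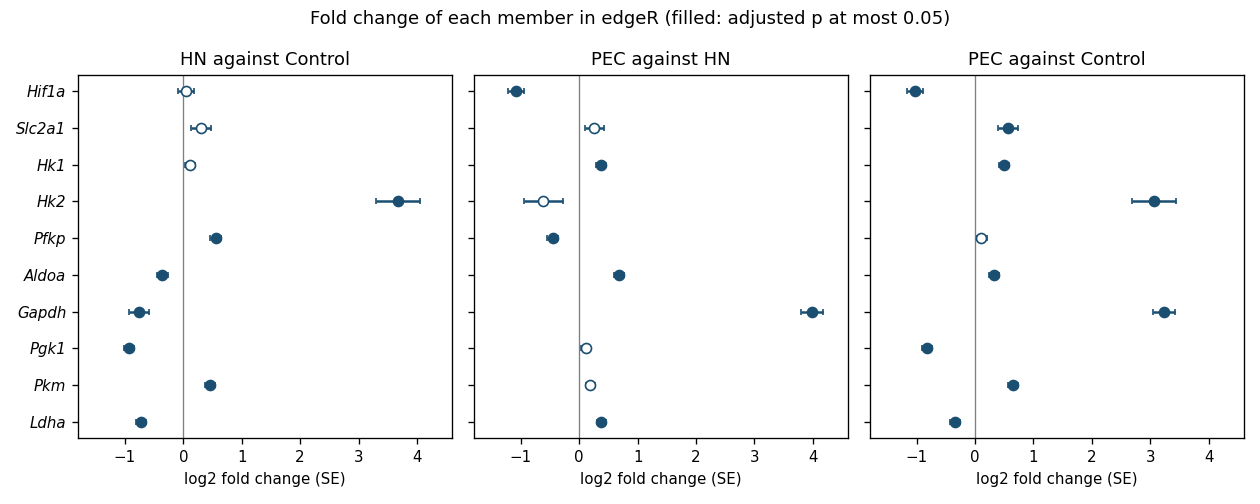
The log2 fold change of each of the 10 genes in the 3 comparisons from the edgeR fit with TMM, with whiskers of 1 SE, and filled points where the adjusted p is at most 0.05. Hk2 and the Gapdh row have the largest values, at 3.68 for Hk2 in HN against Control and 3.99 for Gapdh in PEC against HN, while under library totals Aldoa turns upward in HN against Control and Ldha is at 0.010 in PEC against Control.

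**Figure D3:**
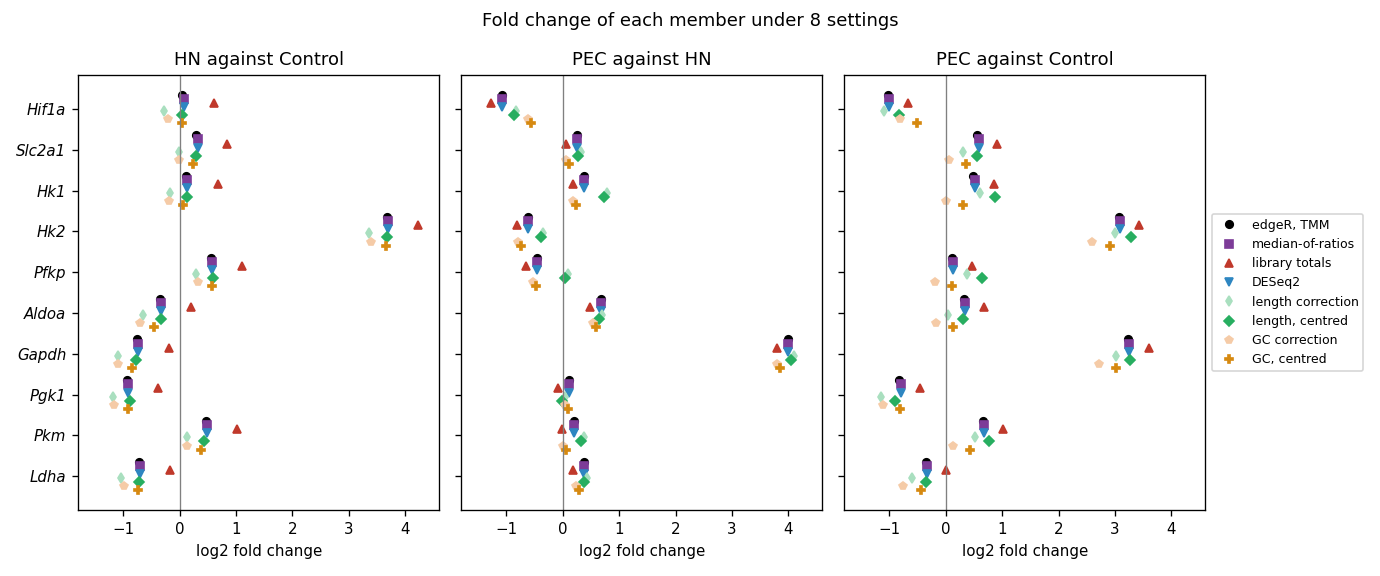
The log2 fold change of each of the 10 genes under 8 settings, which are edgeR with TMM, median-of-ratios or library totals, DESeq2, and edgeR with planned and centred corrections for gene length and GC content. Library totals move all 10 values upward in HN against Control, and the length corrections bring Pfkp from -0.45 to 0.10 and 0.046 in PEC against HN.

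The Gapdh row needs its own account, because most of its sequence is shared. Cut into stretches of 50 bases, 82.5% of the 1371 stretches of its transcript occur exactly in transcripts of other genes, beside 72.2% for Eno1, 68.0% for Pgk1, 34.4% for Pkm, 7.51% for Tpi1 and 0% for Hk2. With stretches of 100 bases the shares were 78.0% for Gapdh and 67.0% for Pgk1. How reads that match several genes were handled is not stated for the deposited counts. A search of the transcripts with blastn found 143 pseudogene rows that match Gapdh at 90% identity or more over at least 50% of its length, and 122 of them held reads. From counts and FPKM, a length of 4578 bases was recovered for the table's own row. That exceeds the span of its own coordinates, so recovered lengths may be too long and serve only for comparison between rows. The transcript compared here has 1420 bases, so the FPKM of this row may not be on the scale of its transcript length. The same holds for other members, with 14869 bases beside 4145 for Pfkp, 9447 beside 4278 for Hk1 and 3224 beside 1549 for Aldoa. For Pkm it was 5538 beside 2432 and for Ldha 3665 beside 1815, with a smaller gap for Slc2a1, 3884 beside 3260. The order of the members by FPKM was not recomputed with transcript lengths and could differ under them.

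The rows with the most reads are nearly identical to Gapdh. The sequences below are bases 301 to 390 of the 1002-base coding sequence, shown because no read of this length could separate Gapdh from several of its copies here. They come from GENCODE mouse release 21 transcripts (GRCm38), 5′ to 3′ on the sense strand, and capitals mark bases that differ from Gapdh. Gm7336 (chr7:51746647-51747878, + strand), Gm12033 (chr11:20335012-20336013, - strand), Gm2606 (chr15:12574889-12575890, + strand), Gm5559 (chr5:95861714-95862715, + strand) and Gm12070 (chr11:26786633-26787634, + strand) are all annotated as processed pseudogenes.
Gapdh: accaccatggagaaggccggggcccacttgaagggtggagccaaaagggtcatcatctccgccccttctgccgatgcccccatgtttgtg
Gm7336: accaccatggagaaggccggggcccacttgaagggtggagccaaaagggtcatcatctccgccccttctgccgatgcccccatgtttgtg
Gm12033: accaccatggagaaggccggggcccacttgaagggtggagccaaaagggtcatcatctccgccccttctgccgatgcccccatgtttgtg
Gm2606: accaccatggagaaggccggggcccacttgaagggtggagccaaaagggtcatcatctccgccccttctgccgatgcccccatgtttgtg
Gm5559: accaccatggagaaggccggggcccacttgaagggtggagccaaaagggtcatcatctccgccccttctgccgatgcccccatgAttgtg
Gm12070: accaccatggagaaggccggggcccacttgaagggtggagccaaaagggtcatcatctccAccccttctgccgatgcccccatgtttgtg

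Reads lay mainly on the copies. In counts per 1000000 of the library total, the Gapdh row held 19.5, 15.9 and 25.2 in Control, 16.6, 18.3 and 18.1 in HN kidneys, and 230.5, 233 and 271 in PEC. Its pseudogene rows together held 854, 858 and 902 in Control, 727, 715 and 739 in HN kidneys, and 1405, 1296 and 1031 in PEC. The Gapdh row thus held 2.25 ± 0.452% (SD, n = 3) of the summed reads in Control, 2.38 ± 0.134% in HN and 16.7 ± 3.59% in PEC, and the PEC libraries did not overlap the others in this share. In each Control and HN library 9 pseudogene rows held more reads than Gapdh itself, and in PEC replicates 1, 2 and 3 this number was 2, 1 and 0.

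Gm7336, with 99.8% identity over 1232 bases, held the most reads of the copies on average over the 9 libraries, while in PEC Gm2606 had the higher mean per library total (237 beside 219 counts per 1000000). The counts of Gm7336 were 14810, 14264 and 16372 in Control, 11935, 12792 and 12866 in HN kidneys, and 20807, 11640 and 11551 in PEC. PEC replicate 1 was above the rest and the other PEC libraries, which have smaller totals, were below the HN range in these raw counts. Per library total, Gm7336 averaged 199 counts per 1000000 in Control, 164 in HN and 219 in PEC. Gm2606 held 27129 counts in PEC replicate 2 beside 13139 and 7053 in PEC replicates 1 and 3, so that the reads were spread over the copies differently in libraries of 1 group. Of the 17 pseudogene rows with a mean count of at least 100, 15 have at least 95% identity to Gapdh. Per library total, 12 of these 17 rows were higher in every PEC library than in every HN library, and 0 were lower in every one. The share of all rows that do so was not counted, so this is not a result about the copies. They also share sequence, so these rows are not separate observations.

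**Figure D4:**
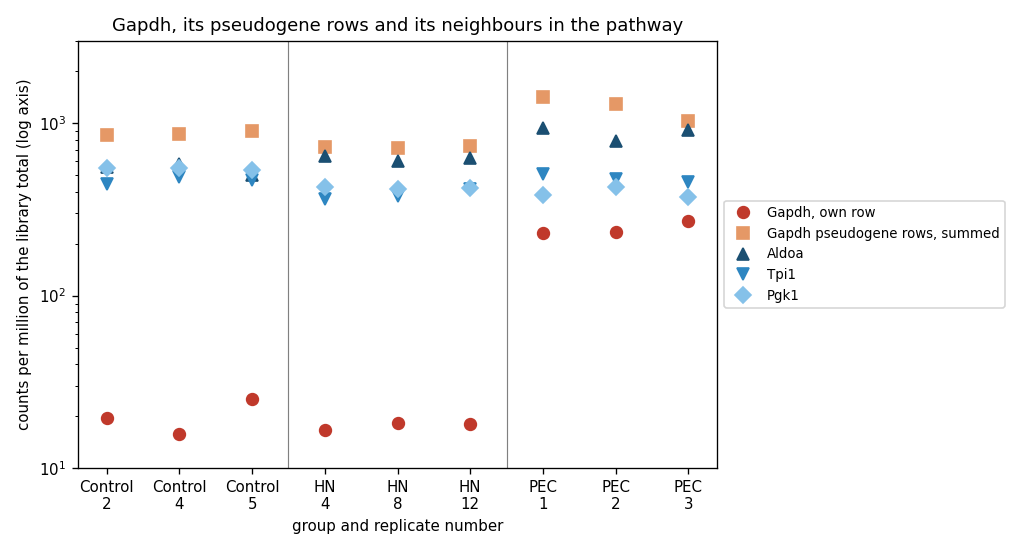
Counts per 1000000 of the library total, on a log axis, for the Gapdh row, the sum of its 143 pseudogene rows, and its pathway neighbours Aldoa, Tpi1 and Pgk1 in each of the 9 libraries. The Gapdh row lies between 15.9 and 25.2 in Control and HN and between 230.5 and 271 in PEC, and its pseudogene rows sum to more than the row in every library.

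Summing Gapdh with its pseudogene rows, a setting chosen after seeing the data, gave 1068, 1051 and 1192 CPM in Control, 648, 609 and 619 in HN kidneys, and 1566, 1498 and 1245 in PEC. The groups again did not overlap. The summed log2 fold change was -0.82 (SE 0.10, adjusted p = 0.000245) for HN against Control, 1.20 (SE 0.11, adjusted p = 7.30e-05) for PEC against HN and 0.38 (SE 0.10, adjusted p = 0.0152) for PEC against Control, where the row alone had -0.76, 3.99 and 3.23, so that only the PEC differences were smaller. Which locus the reads came from cannot be told apart in these counts, so the value of the Gapdh row is uncertain. For the other members with such copies the row held nearly all summed reads: 96.7% in Control, 97.0% in HN and 98.1% in PEC for Pgk1, and summing left the log2 fold change of Pgk1 at -0.94, 0.10 and -0.84.

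Gapdh was also compared with its neighbours within each library, where scaling cancels. Aldoa and Tpi1 (triosephosphate isomerase) act just before Gapdh and Pgk1 just after. The log2 ratio of the Gapdh row to Aldoa was -4.83, -5.19 and -4.32 in Control, -5.28, -5.03 and -5.12 in HN kidneys, and -2.01, -1.75 and -1.75 in PEC. The log2 ratio to Tpi1 was -4.51, -4.94 and -4.22 in Control, -4.46, -4.37 and -4.52 in HN kidneys, and -1.13, -1.03 and -0.75 in PEC. The log2 ratio to Pgk1 was -4.81, -5.12 and -4.41 in Control, -4.67, -4.51 and -4.53 in HN kidneys, and -0.73, -0.87 and -0.46 in PEC. The PEC libraries were above all others for each neighbour, and Control and HN overlapped for each.

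Between PEC and HN the log2 ratio differed by 3.31 to Aldoa, 3.48 to Tpi1 and 3.88 to Pgk1, and between PEC and Control by 2.94, 3.58 and 4.09. Each of these 6 differences had an exact two-sided permutation p of 0.1, the smallest that 3 libraries against 3 allow, and 0.15 after adjustment over the 9 tests. No threshold of 0.05 can be reached in this design. Between HN and Control the ratios differed by -0.37 to Aldoa (exact p = 0.3), 0.11 to Tpi1 (exact p = 0.8) and 0.21 to Pgk1 (exact p = 0.4), and the one to Tpi1 was -0.083 without Control replicate 4. Leaving out 1 library moved the ratio to Aldoa between -0.57 (without Control replicate 4) and -0.13 (without Control replicate 5), and that to Pgk1 between 0.042 and 0.40 for the same libraries. With the pseudogene rows summed in, the differences between PEC and HN were 0.51, 0.68 and 1.08, those between PEC and Control 0.052, 0.70 and 1.20, and those between HN and Control -0.46, 0.01 and 0.12. The neighbours also moved against each other: the log2 ratio of Aldoa to Pgk1 differed by 0.58 between HN and Control, 0.57 between PEC and HN and 1.15 between PEC and Control.

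**Figure D5:**
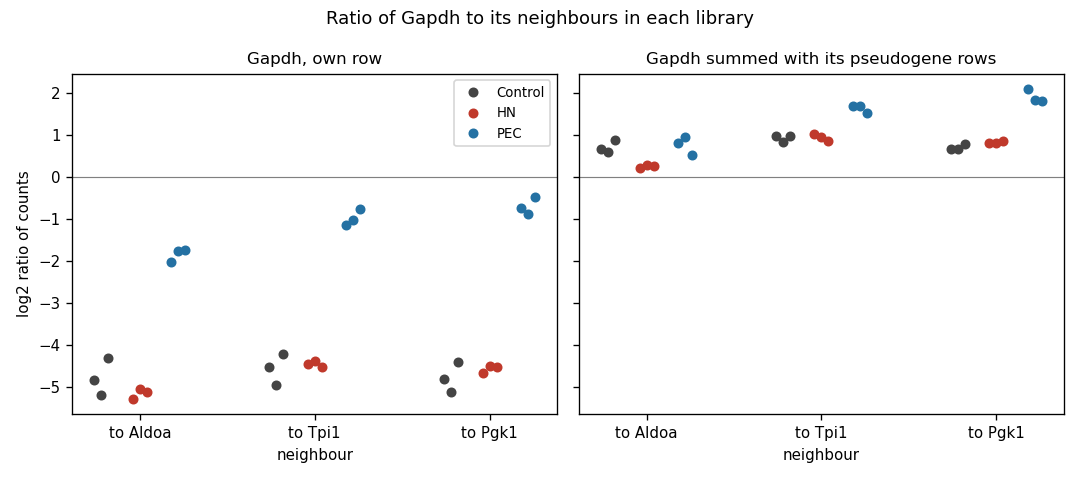
The log2 ratio of Gapdh counts to those of Aldoa, Tpi1 and Pgk1 in each library, for the Gapdh row alone and for the row summed with its pseudogene rows, with 1 point per library. For the row alone PEC lies more than 2 log2 units above the other groups, and for the sum the PEC and Control libraries overlap in the ratio to Aldoa.

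Genes were ranked by Pearson r with the Gapdh row over the 9 libraries, in log2 counts per 1000000 of the library total without TMM. The 10551 genes compared had a mean of at least 10 counts per 1000000 on this scale. Most like the Gapdh row were Ankzf1 (0.992), St6galnac2 (0.989), Eps8l2 (0.988), Cers2 (0.987) and Gm11808 (0.987). The libraries fall into groups that differ in these genes, so r mainly restates the group means, and it is given as a description with no test. In counts per 1000000 of the library total, Gm11808 averaged 13.2 in Control, 13.2 in HN and 80.3 in PEC, and St6galnac2 averaged 6.47, 6.26 and 21.7.

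Counts in this and the lists that follow stand beside 21.1% of all genes higher and 20.7% lower in HN against Control, 18.3% and 20.6% in PEC against HN, and 22.9% and 23.5% in PEC against Control. Under library totals the counts stand beside 9642 of 21392 genes higher and 1706 lower in HN against Control. For PEC against Control these are 7792 and 2841. For PEC against HN 2588 genes were higher, and the number lower is given above with the members. The other enzymes and isoforms of the pathway numbered 17. Between HN and Control 3 were higher (Hk3, Hkdc1 and Eno2) and 8 were lower, with a median log2 fold change of -0.30 beside -0.0008 for all genes. Under library totals the split was 6 higher and 3 lower, with a median of 0.25 beside 0.56 for all genes, and of the 8 called lower Pfkm, Bpgm, Pgam1, Pgam2 and Eno1 turned to values above 0. Tpi1 fell by 0.83 on the log2 scale (SE 0.08, adjusted p = 4.21e-05), in the direction of its neighbour Pgk1. Hk3, a hexokinase of myeloid cells, rose by 3.52 (SE 0.88, adjusted p = 0.0103) from 0.433 ± 0.382 CPM.

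Between PEC and HN 9 of the 17 were higher and 1 was lower (Bpgm), with a median of 0.51 beside -0.015 for all genes, and library totals gave 6 higher and 3 lower. Gpi1 rose by 0.75 (SE 0.15, adjusted p = 0.00372) and Tpi1 by 0.51 (SE 0.08, adjusted p = 0.00109). Between PEC and Control 7 were higher and 5 lower, with a median of 0.15 beside 0.04, and library totals gave 8 and 2. There Tpi1 fell by 0.32 (SE 0.08, adjusted p = 0.00886), and turned to 0.04 under library totals.

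Of 8 further transporters of hexoses and lactate, 2 were higher and 5 lower in HN relative to Control, 3 higher and 0 lower in PEC than in HN kidneys, and 1 higher and 3 lower in PEC than in Control. Their medians were -0.97, 0.23 and -0.41 beside -0.0008, -0.015 and 0.04 for all genes, and library totals gave 2 higher and 2 lower, 2 and 2, and 3 and 3. For the 0 lower in PEC against HN, an unadjusted p of at most 0.05 gave 2 and DESeq2 gave 2. Slc2a2, the GLUT2 transporter of the proximal tubule, was at 193 ± 25.7 CPM in Control (SD, n = 3), 77.0 ± 2.44 in HN and 94.1 ± 12.8 in PEC and fell by 1.33 in HN (SE 0.12, adjusted p = 3.77e-05). Slc16a3, the lactate exporter MCT4, rose by 1.73 in HN (SE 0.31, adjusted p = 0.00164) from a low 1.76 ± 0.336 CPM.

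Regulators of glycolytic flux and of pyruvate entry into mitochondria numbered 13. In HN 1 was higher and 7 were lower than in Control, in PEC 4 were higher and 0 lower than in HN, and in PEC 1 was higher and 6 lower than in Control. The medians were -0.93, 0.16 and -0.49 beside the same medians of all genes, and library totals gave 4 and 6, 2 and 0, and 3 and 5. The count of 0 lower was also 0 at an unadjusted p of at most 0.05 and by DESeq2. Pdha1, a subunit of pyruvate dehydrogenase, fell from 734 ± 11.9 CPM in Control to 317 ± 15.7 in HN (log2 fold change -1.21, SE 0.08, adjusted p = 7.51e-06) and was at 353 ± 27.7 in PEC. Mpc2, a subunit of the mitochondrial pyruvate carrier, fell by 1.30 (SE 0.08, adjusted p = 4.33e-06), whereas Pdk1, a kinase that inhibits pyruvate dehydrogenase and a known HIF-1 target, had 0.06 (SE 0.11, adjusted p = 0.696), called higher under library totals at 0.62 (adjusted p = 0.00283).

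Hif1a's partners, regulators and targets outside glycolysis were 18 genes. Between HN and Control 0 were higher and 11 were lower by edgeR, with a median of -0.49 beside -0.0008 for all genes, and library totals gave 5 higher and 5 lower, with Epas1, Egln2 and Hif1an turning above 0. Between PEC and HN 5 were higher and 5 lower (median 0.004 beside -0.015), and library totals gave 2 and 7. Between PEC and Control 0 were higher and 12 lower (median -0.51 beside 0.04), and library totals gave 1 and 5. For the counts of 0 higher, an unadjusted p of at most 0.05 gave 0 in HN and 1 in PEC, as DESeq2 did. The lower genes in PEC against HN included Arnt, the partner of HIF-1α, at -0.70 (SE 0.18, adjusted p = 0.0121), and Vhl, which marks HIF-1α for degradation, at -0.34 (SE 0.09, adjusted p = 0.0176).

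Among the targets, Vegfa was at 169, 169.7 and 172 CPM in Control, 73.4, 74.7 and 80.6 in HN kidneys, and 191, 189.7 and 188 in PEC. HN stood well below the other groups, and the PEC libraries were above Control by a step that did not pass the test with TMM scaling (0.16, adjusted p = 0.0859) and was called higher under library totals (0.51, adjusted p = 0.000651). Vegfa fell by 1.16 in HN (SE 0.07, adjusted p = 3.86e-06) and rose by 1.31 between HN and PEC (SE 0.07, adjusted p = 1.01e-05). Car9 went the same way, falling by 1.98 in HN (SE 0.28, adjusted p = 0.000488) and rising by 2.04 in PEC (SE 0.29, adjusted p = 0.000633). Kdm3a, another target, fell by 0.42 between HN and PEC (SE 0.12, adjusted p = 0.0273). The amount of HIF-1α protein is not measured in these data.

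Promoters of the members were searched for the core letters of the HIF response element, acgtg or gcgtg on either strand, in the 250 bases before each annotated start (RefSeq, GRCm38.p6). Of 15 windows of the 10 members 12 held a match, and 10 of 10 members had one in some window, beside 38.6% of 32851 windows and 41.5% of 27025 genes. Hk2 and Pgk1 are shown because they had the largest rise and the largest fall in log2 fold change among the members in HN against Control. The Hk2 window is chr6:82774455-82774704 on the - strand and the Pgk1 window chrX:106186850-106187099 on the + strand, written 5′ to 3′ with matches in capitals. Both hold 2 matches, so these letters are present in members that moved in opposite directions, and a match is not evidence of binding.
Hk2: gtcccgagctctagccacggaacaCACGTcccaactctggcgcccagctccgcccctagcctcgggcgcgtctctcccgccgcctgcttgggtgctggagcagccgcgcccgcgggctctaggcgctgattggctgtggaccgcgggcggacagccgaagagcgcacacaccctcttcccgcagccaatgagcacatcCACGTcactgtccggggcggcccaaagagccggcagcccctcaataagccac
Pgk1: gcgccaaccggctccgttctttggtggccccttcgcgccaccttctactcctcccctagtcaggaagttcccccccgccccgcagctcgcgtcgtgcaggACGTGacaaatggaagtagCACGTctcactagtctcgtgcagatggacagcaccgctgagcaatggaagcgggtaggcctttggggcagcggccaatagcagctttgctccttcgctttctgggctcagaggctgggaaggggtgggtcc

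The 4 enzymes of glucose production, the reverse pathway, were all lower in HN than in Control and in PEC than in Control, and all higher in PEC than in HN, and library totals kept these calls except for 1 of the 4 in PEC against HN. Pck1 was at 4689 ± 1349.8 CPM in Control (SD, n = 3), 488 ± 144 in HN and 1270.1 ± 465 in PEC, and the medians of the list were -2.71, 1.04 and -1.66.

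Other reference genes were set beside Gapdh. Of 5, 2 were higher and 1 lower in HN relative to Control, 1 higher and 1 lower in PEC than in HN kidneys, and 2 higher and 1 lower in PEC than in Control, with medians of -0.004, 0.16 and 0.15 beside -0.0008, -0.015 and 0.04 for all genes. Library totals gave 4 higher and 0 lower, 0 and 1, and 3 and 0. Actb rose by 0.89 in HN (SE 0.13, adjusted p = 0.000535). Tbp had -0.0042 in HN against Control (SE 0.10, adjusted p = 0.98), called higher under library totals at 0.55 (adjusted p = 0.00111), and 0.16 in PEC against HN (SE 0.10, adjusted p = 0.25), and Hprt fell by 0.25 in PEC against HN (SE 0.07, adjusted p = 0.0188). B2m in PEC rested on 1 library, at 438, 508 and 2108 CPM.

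Cell type markers moved with the groups as well. In bulk tissue, fewer cells of a type and less RNA per cell cannot be told apart. The 9 proximal tubule genes summed to 13970.0, 14527 and 15201 CPM in Control, 3688, 3468 and 3611 in HN kidneys, and 7864, 9084 and 6469 in PEC, with Slc27a2 the most abundant. All 9 were lower in HN than in Control, 9 were higher in PEC than in HN kidneys, and 8 were lower in PEC than in Control, where library totals gave 9 lower, 7 higher, and 1 higher and 6 lower. Of the glycolysis members, Pgk1, Ldha, Aldoa and the Gapdh row were also lower in HN, whereas Hk2, Pfkp and Pkm were higher. Under library totals Aldoa turned to 0.20, and the calls of Ldha (-0.17) and of the Gapdh row (-0.19) were lost. The 5 injured tubule genes, led by Spp1, summed to 886, 959.6 and 836 CPM in Control, 19627, 16996 and 17015 in HN kidneys, and 15021, 15333 and 12679 in PEC. All 5 were higher in HN and in PEC than in Control, and 1 was lower in PEC than in HN, which was 3 under library totals.

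Immune cell genes were counted in 3 lists. The 9 macrophage genes, led by Lyz2, summed to 139.5, 164 and 154 CPM in Control, 1807, 1795 and 1542 in HN kidneys, and 688, 770.3 and 921 in PEC, with 9 higher in HN than in Control, 8 lower in PEC than in HN and 8 higher in PEC than in Control, which was 9 under library totals. The 6 T cell genes, led by Cd4, summed to 4.85, 7.06 and 5.87 in Control, 26.5, 43.9 and 31.0 in HN kidneys, and 19.2, 23.8 and 24.8 in PEC. All 6 were higher in HN and in PEC than in Control, and 2 were lower in PEC than in HN, or 4 under library totals. The neutrophil list, led by Csf3r, summed to 6.23, 12.4 and 4.82 in Control, 34.9, 22.8 and 24.2 in HN kidneys, and 12.2, 15.2 and 30.6 in PEC. Of its 5 genes 4 were tested, 2 were higher in HN than in Control, 0 passed in PEC against HN (0 also at an unadjusted p of at most 0.05 and by DESeq2) and 1 was higher in PEC than in Control, and library totals gave 3 higher, 0 and 2 higher. Ly6g was at 0 in all Control libraries.

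Fibroblast and proliferation genes were higher in HN. The 6 fibroblast genes, led by Col3a1, summed to 293, 283 and 283 CPM in Control, 2423, 2500.1 and 2260.4 in HN kidneys, and 1214, 1339 and 1118 in PEC, with all 6 higher in HN and in PEC than in Control and 4 lower in PEC than in HN, with the same counts under library totals. The 5 proliferation genes, led by Mki67, summed to 7.24, 9.86 and 18.2 in Control, 81.6, 86.4 and 97.5 in HN kidneys, and 66.0, 75.8 and 52.9 in PEC. All 5 were higher in HN and in PEC than in Control, and 0 passed in PEC against HN by edgeR, at an unadjusted p of at most 0.05 or by DESeq2, while library totals gave 1 lower.

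Further lists covered the rest of the nephron. The 7 genes of the thick limb and distal tubule, led by Umod, summed to 5936, 6515 and 6669 CPM in Control, 5319.8, 4583 and 5139 in HN kidneys, and 5316, 5563 and 4946 in PEC, with 4 lower in HN than in Control, 2 higher in PEC than in HN kidneys, and 1 higher and 4 lower in PEC than in Control. Library totals gave 2 higher and 3 lower, 2 and 1, and 3 and 1. Collecting duct genes, 6 led by Aqp2, summed to 882, 955 and 568 in Control, 464, 340.1 and 463 in HN kidneys, and 616, 568 and 674 in PEC. Of these 4 were lower in HN, 5 were higher in PEC than in HN kidneys, and 3 were higher and 3 lower in PEC than in Control, and library totals gave 2 higher and 3 lower, 2 and 0, and 3 and 1. The 4 podocyte genes, led by Podxl, summed to 373, 373 and 369.7 in Control, 403, 357 and 344 in HN kidneys, and 438, 428 and 388 in PEC, and 1 was higher in each comparison, where library totals gave 4, 0 and 3 higher.

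Vessel and blood lists complete the set. The 4 endothelial genes, led by Pecam1, summed to 267, 288 and 311 CPM in Control, 232, 239 and 225 in HN kidneys, and 190.4, 218 and 297 in PEC. In HN 1 was higher and 1 lower than in Control, in PEC 1 was higher than in HN, and in PEC 1 was lower than in Control, and library totals gave 2 higher and 0 lower, 0 and 1, and 2 and 1. The 5 red cell genes, led by Hba-a1, summed to 342, 325 and 536 in Control, 65.3, 50.5 and 37.4 in HN kidneys, and 256, 314 and 269.7 in PEC. All 5 were lower in HN than in Control and higher in PEC than in HN kidneys, and 3 were lower in PEC than in Control, where library totals gave 1 higher and 1 lower in that last comparison. No marker other than Ly6g was at 0 in any library. The part of these cell types in the glycolysis results was not tested.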

How the data were processed

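The deposited table gives, per the file headers, a count of reads and an FPKM for each gene in 9 kidney libraries, 1 mouse each. The authors made the counts with tools not fully stated (submitters' notes name Bowtie 0.12.2 and the builds mm8 and mm9), and the coordinates in the table match GRCm38: 51991 of 55144 rows found in GENCODE mouse release 21 have identical ones. The authors scaled FPKM by gene length and library total. All columns of values belong to a sample (0 do not). Counts were fitted in edgeR 4.0.16 (R 4.3.3; quasi-likelihood test, TMM, filterByExpr with a minimum count of 10, all 9 libraries, group as the only term), with adjusted p of at most 0.05 as the call. This call, rather than the study's fold rule, is used unless the fold rule is named. Alternatives were median-of-ratios factors, library totals, DESeq2 1.42.0, limma 3.58.1 on log2(FPKM + 1) or log2(FPKM + 0.1) with a mean FPKM of at least 0.5, no filter, the compared groups alone, length and GC splines (5 degrees of freedom), and leaving out each library. Transcripts were compared with blastn 2.17.0 (at least 90% identity over at least 50% of the query). Gapdh ratios used exact permutation tests over 10 splits.

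The fit was tested on simulated data. Members and lists, which cover other glycolytic enzymes, transporters, flux regulators, the HIF pathway, glucose production, reference genes and cell type markers, were chosen with earlier results of these data known. Genes named are the 10 members, genes of these lists, the 5 rows most like Gapdh by Pearson r, and rows that overlap or copy a member; the last kind (Pitrm1, Gm49759, Iffo1 and copies of Gapdh after the most abundant one) was chosen after its values were seen. Replicate numbers name mice and pair nothing across groups.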

Additional observations from a re-analysis of the deposited data

How the results depend on the processing

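Directions and calls of Hk2 and Pgk1 in HN against Control, of Hif1a, Gapdh and Aldoa in PEC against HN, and of Hk2, Gapdh, Hif1a and Pgk1 in PEC against Control were kept under every setting run. The size of the Gapdh values was not kept. With its pseudogene rows summed in, 3.99 became 1.20 in PEC against HN and 3.23 became 0.38 in PEC against Control. The settings that sum pseudogene rows, leave out mitochondrially encoded genes or centre the length and GC splines were chosen after seeing the data. No paired analysis was possible because the groups are different mice and nothing pairs them.

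Library totals gave 9642 genes higher and 1706 lower in HN against Control (members 6 and 1), 2588 genes and 2 members higher in PEC against HN, and 7792 genes higher and 2841 lower in PEC against Control. They turned Aldoa to 0.20 in HN against Control, Pgk1 to -0.0897 and Pkm to -0.0047 in PEC against HN, and Ldha to 0.0104 in PEC against Control. By construction this scaling adds the shift of the median of all genes.

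With limma on log2(FPKM + 1), 8106 genes were higher and 1690 lower in HN against Control (members 6 and 1), 2527 genes and 2 members higher in PEC against HN, and 2896 genes lower in PEC against Control, with Aldoa at 0.18 in HN against Control and Pgk1 at -0.11 and Pkm at -0.0239 in PEC against HN. With 0.1 in place of 1 these were 8073, 1682, 6, 1, 2433, 2, 2936, 0.18, -0.11 and -0.0242. This setting changes the scaling, the test, the filter and the added constant together, so the part of each was not tested.

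The study's fold rule left 4 members, 1 of them higher, in HN against Control, 3 in PEC against HN (2 higher, 1 lower) and 5 in PEC against Control (3 higher), since it drops changes below its fold by construction.

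The planned length correction gave 7040 genes lower and 1 member higher in HN against Control, with Hif1a at -0.27, Slc2a1 at -0.0178 and Hk1 at -0.17, and 1 member lower in PEC against HN, with Pfkp at 0.10. Its centred form gave 1 member lower in PEC against HN, with Pfkp at 0.0463 and Pgk1 at -0.0191. The planned GC correction gave 6852 genes lower in HN against Control, with Hif1a at -0.21, Slc2a1 at -0.0073 and Hk1 at -0.18, 2 members higher in PEC against HN, with Pkm at -0.0022, and 5 members passing in PEC against Control, 2 of them higher, with Pfkp at -0.20 and Aldoa at -0.17. The planned forms moved the median of all genes to -0.27 in HN against Control under either. For the centred form the cause was not tested.

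Leaving out 1 library gave Hif1a in HN against Control from -0.0686 to 0.12, and the Gapdh ratio to Tpi1 in HN against Control from -0.0829 to 0.28. The cause was not tested. Summed with its pseudogene rows, Gapdh had log2 ratio differences to Aldoa, Tpi1 and Pgk1 of 0.51, 0.68 and 1.08 in PEC against HN, and of 0.052, 0.70 and 1.20 in PEC against Control. Its own row held 2.25% of the summed reads in Control, 2.38% in HN and 16.7% in PEC. Of the other calls on single members that changed with the direction kept, 40 were lost and 18 were newly made. A lost call is not always a smaller value, since the fold rule drops calls at unchanged values.

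With 3 libraries a group, exact tests cannot go below 0.1. Totals of 57714111 to 81069646 counts leave counting error small for all members but Hk2 in Control. The treatment and the library properties that set PEC apart cannot be told apart.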
